A study of Mus musculus with 35 samples.

Results

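Whole lungs of 5 mice that breathed styrene at 20 ppm were set against whole lungs of 5 mice that breathed air alone, which together gave 10 of the 35 arrays of the series. The arrays were chosen by their labelled concentration, and no measured value entered the choice. All mice were adult male CD-1 animals from a commercial breeder, an outbred stock whose members differ genetically, and the labels name no engineered allele and no agent other than styrene. They were kept on a 12 hour light cycle, exposed singly in wire cages, and killed by pentobarbital and bleeding on the morning after exposure. The labels disagree on its length: the protocol gives a single exposure of 6 hours and the sample titles 1 day, but 5 days stand in the title of the series and in the exposure time of every sample. Total RNA of each mouse was hybridised to 1 array, and the further groups of 5 mice breathed 1, 5, 10, 40 or 120 ppm. The 10 and 40 ppm groups served as neighbours of 20 ppm, and the 1 ppm group as a substitute for air.

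Styrene is an industrial solvent that cytochrome P450 enzymes oxidise to styrene oxide, a reactive epoxide. In the mouse lung this step is assigned mainly to CYP2F2 in club cells, the secretory cells of the small airways, with a share for CYP2E1. The epoxide is opened by epoxide hydrolase or joined to glutathione by glutathione transferases, and what escapes can bind protein and DNA. NRF2, a transcription factor released by electrophiles, switches on genes for glutathione synthesis, thioredoxin and quinone reduction.

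The tissue matched its label. The club cell secretoglobin Scgb1a1 lay between 13.68 and 13.83 log2 in the air mice and between 13.80 and 13.88 at 20 ppm, near the top of the scale, and the surfactant protein gene Sftpa1 lay above 12.6 log2 on each of the 10 arrays. Values are log2 RMA summaries of probe sets, so a difference of 1 is a doubling of signal. The probe set with the highest mean stood for each of the 17097 genes tested. Differences are given as 20 ppm minus air with their standard error from a limma fit over all 35 arrays, n = 5 mice in each group, and a gene counts as called where its p, adjusted by Benjamini-Hochberg across the 17097 genes, was under 0.05. The p-values of this fit rest on the spread between mice within a group, pooled over the 7 groups of 5 mice. Since no date or batch of the arrays is labelled, one that coincided with the groups cannot be told apart from exposure.

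The arrays of the groups stood apart as wholes. The interquartile range of all values on an array was 2.94, 3.10, 3.04, 2.97 and 3.16 log2 in air mice 1 to 5 and 3.28, 3.43, 3.30, 3.46 and 3.45 log2 in 20 ppm mice 1 to 5. The spread of values was thus wider on every array at 20 ppm, by 0.34 log2 on average (two-sided exact permutation test, p = 0.00794, adjusted p = 0.0159 over 8 tests, the smallest p that 252 arrangements allow). On the first principal component of all arrays, which held 67.3% of their variance, the air mice scored from -134.6 to -72.8 and the 20 ppm mice from -14.4 to 43.5, with the same exact p. The mean correlation across genes was 0.988 between mice at 20 ppm, 0.982 between air mice and 0.938 between the groups. An array axis, the direction along which mice within a group varied most (17.4% of the variance within groups), also separated them: air mice scored from 0.66 to 1.73 and 20 ppm mice from -0.56 to 0.61. Fits with this axis as a covariate are given beside each group of genes. They extrapolate, because the groups shared no range of it, and the part of array-wide differences in each result cannot be told apart from exposure. Over the whole series, mean first component scores were -110 in air and -122.9 at 1 ppm. At 5, 10, 20, 40 and 120 ppm they were 92.8, 39.3, 22.4, 29.8 and 48.7. Mean interquartile ranges were 3.04 and 2.85 log2 in air and at 1 ppm, then 3.48, 3.40, 3.38, 3.40 and 3.42 log2. The arrays thus divided between 1 and 5 ppm, with no order by concentration above that.

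Most of the lung transcriptome differed. Of 17097 genes, 10867 were called (63.6%), 5021 higher (29.4%) and 5846 lower (34.2%) at 20 ppm, and 3943 rose and 3100 fell by at least 1.5-fold. The 5 mice of one group lay entirely above or below the 5 of the other in 7069 genes (41.3%), 3450 of them higher (20.2%) and 3619 lower (21.2%). The median difference of all genes was -0.11 log2, and 0.0007 log2 with the array axis as a covariate. Brightness divided the directions: among 7274 genes with a mean under 5 log2, near the floor of the arrays, 547 rose and 2266 fell, whereas 4474 of the 9823 brighter genes rose and 3580 fell. When the array axis entered as a covariate, 5445 genes passed, 2995 higher and 2450 lower, and with the interquartile range 4816, 2307 higher and 2509 lower. Every count of list members below stands against this background, in which a gene taken at random was more often called than not. Counts from the covariate fits stand against smaller backgrounds, 5445 and 4816 of 17097 genes, in which most genes were not called.

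**Figure D1:**
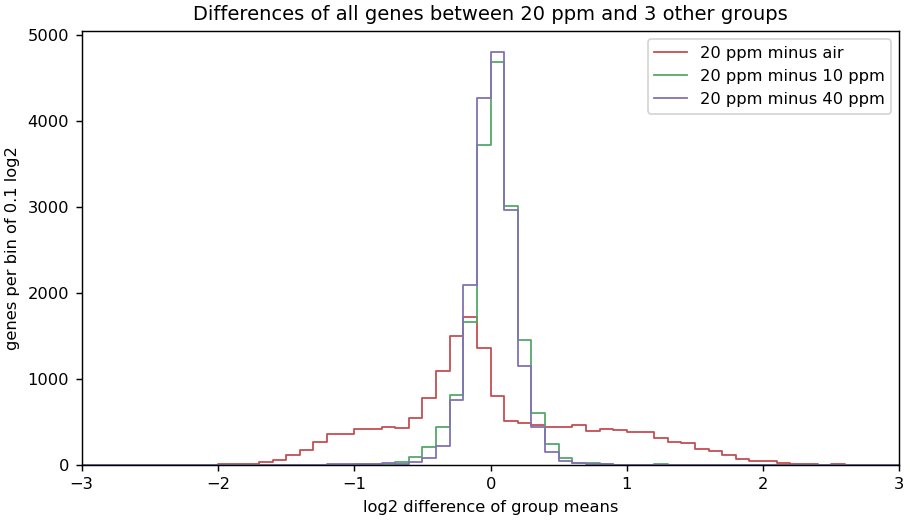
Number of genes (vertical axis) in bins of 0.1 log2 of the difference between the mean of 20 ppm and the mean of air, 10 ppm or 40 ppm (horizontal axis), over 17097 genes with 5 mice a group. The curve against air is low and broad with its peak just below 0, whereas the curves against 10 and 40 ppm are narrow, with 98.2% and 99.0% of genes within 0.5 log2 of 0.

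The 10 largest rises, taken from called genes whose groups did not overlap, included genes of cilia, DNA repair, secretion and mitochondria. Drc3, a part of the dynein regulatory complex that governs ciliary beating, measured 5.10, 4.54, 4.72, 4.77 and 4.42 log2 in the air mice and 8.34, 7.29, 6.64, 6.98 and 7.24 log2 at 20 ppm. Every exposed mouse was above every air mouse, as the choice of these genes required. The measured difference was 2.59 ± 0.239 (adjusted p = 5.23e-11), although only 1 of 2 probe sets for Drc3 rose. Bbs5, a subunit of the BBSome that carries membrane proteins into cilia, measured 3.08, 3.57, 3.80, 3.95 and 3.71 log2 in air, at the floor, and 6.31, 6.20, 5.94, 6.15 and 6.15 log2 at 20 ppm (2.53 ± 0.152, adjusted p = 9.24e-15). Msh6, which recognises mismatched bases in newly copied DNA, was tightly grouped on both sides, at 4.05, 4.19, 4.22, 3.77 and 4.36 log2 in air and 6.22, 6.73, 6.42, 6.87 and 6.93 log2 at 20 ppm. Its difference was 2.52 ± 0.141 (adjusted p = 2.16e-15). Chil4, a chitinase-like protein secreted by airway epithelium, was the brightest of the 10, at 8.74, 9.68, 9.82, 9.22 and 9.51 log2 in air and 11.81, 11.70, 11.41, 12.23 and 11.94 log2 at 20 ppm (2.42 ± 0.211, adjusted p = 1.71e-11). In Chil4 too, 1 of 2 probe sets rose.

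The other 6 of the 10 largest rises lay between 2.29 and 2.39 log2. Cd55, which shields cells from complement, rose by 2.39 ± 0.216 in all 3 of its probe sets, and Copg2, a subunit of the coat of Golgi vesicles, by 2.39 ± 0.118. Copg2 at 20 ppm spanned only 7.03 to 7.16 log2 over the 5 mice. Nme7, a nucleoside diphosphate kinase found at centrosomes and cilia, rose by 2.37 ± 0.210, but of its 3 probe sets 1 rose and 1 fell. Tgds rose by 2.35 ± 0.146, the peroxisomal dehydrogenase-like gene Hsdl2 by 2.34 ± 0.148, and Etfbkmt, a mitochondrial methyltransferase, by 2.29 ± 0.247. Of the 10, all but Chil4 and Etfbkmt had an air mean under 5 log2, where the values do not show whether a probe set was above background. Their differences are those of the measured signal, not exact folds, and their order among the rises is not settled. With the array axis as a covariate all 10 largest rises were still called.

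The largest falls included receptors of platelets and of white blood cells. Gp1bb, a subunit of the platelet receptor for von Willebrand factor, measured 7.70, 7.84, 8.10, 8.31 and 8.14 log2 in air and 5.81, 6.49, 4.57, 5.45 and 6.58 log2 at 20 ppm. All exposed mice were lower, with mouse 3 the lowest, and the mean signal in air was 4.71-fold that at 20 ppm (-2.24 ± 0.325, adjusted p = 3.74e-07). Itga2b, the alpha chain of the platelet fibrinogen receptor, measured 7.33, 7.51, 7.54, 7.43 and 7.40 log2 in air and 5.54, 5.86, 5.21, 5.33 and 5.71 log2 at 20 ppm (-1.91 ± 0.188, adjusted p = 1.86e-10). S1pr4, a sphingosine phosphate receptor of white blood cells, measured 9.31, 9.33, 8.69, 8.72 and 8.44 log2 in air and 6.82, 6.98, 7.01, 6.72 and 7.05 log2 at 20 ppm (-1.98 ± 0.174, adjusted p = 2.08e-11). Fermt3, the kindlin that activates integrins in blood cells, fell by 1.88 on the log2 scale in both of its probe sets.

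The other 6 large falls were more mixed in what they encode and in how even they were. Ckm, the creatine kinase of striated muscle, measured 9.29 log2 in air mouse 1 and 6.38, 7.26, 6.59 and 6.50 log2 in the other air mice, against 5.88, 5.01, 5.16, 4.59 and 4.91 log2 at 20 ppm. Its difference was -2.10 ± 0.570 (adjusted p = 0.00189), and -1.58 without air mouse 1 (adjusted p = 0.0143). Ocel1 measured 5.69 log2 in 20 ppm mouse 2 and 7.47 to 8.33 log2 in the other 4, all under the 9.11 to 9.64 log2 of the air mice. Ly6d, a surface antigen, fell by 2.00 ± 0.434, Armc6 by 1.94 ± 0.208, the kinase gene Sbk1 by 1.81 ± 0.199, and Borcs6, a subunit of a complex that moves lysosomes, by 1.79 ± 0.127 on the log2 scale. The covariate fit lost the calls of Ckm (adjusted p = 0.545), Ly6d (adjusted p = 0.110) and Ocel1 (adjusted p = 0.203) and kept those of the other 7 falls.

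**Figure D2:**
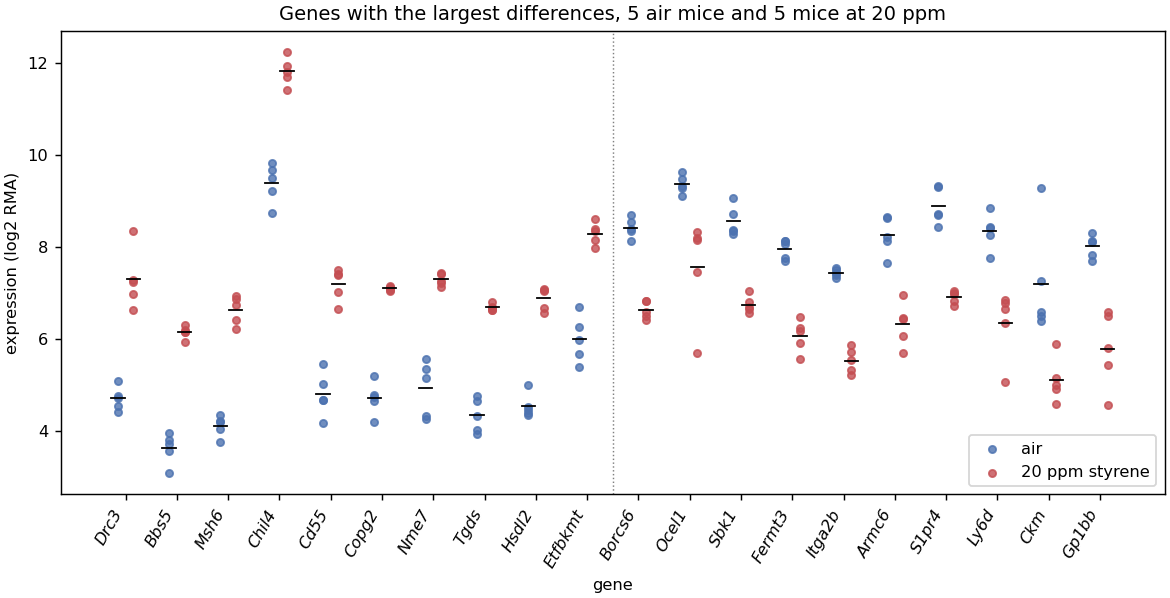
Expression in log2 RMA units (vertical axis) of the 10 genes that rose most (left of the dotted line) and the 10 that fell most (right) among called genes whose groups did not overlap, in 5 air mice (blue) and 5 mice at 20 ppm (red). Points are mice and bars group means, and in all 20 genes the red points lie wholly above or below the blue ones, as their choice required.

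Neither P450 enzyme assigned to styrene, Cyp2f2 or Cyp2e1, was called. Of 9 measured members of the P450 and epoxide hydrolase list, 2 rose, 1 fell and 6 were not called (background 63.6% called), with a median of 0.30 log2 against -0.11 for all genes. Cyp2f2, the main styrene oxidase of club cells, measured 13.14, 12.95, 13.06, 13.10 and 13.07 log2 in air and 13.25, 13.16, 13.21, 13.12 and 13.05 log2 at 20 ppm. The groups overlapped, the difference was 0.09 ± 0.0611 (adjusted p = 0.177), at a level near the top of the scale. When the interquartile range was the covariate, Cyp2f2 was called higher (0.26, adjusted p = 0.0466), the only call of this list in that fit. Cyp2e1, the other styrene oxidase, ranged from 5.81 to 7.72 log2 in air and from 6.69 to 7.91 log2 at 20 ppm, and the test did not call it (0.49 ± 0.743, adjusted p = 0.577). Its 95% interval, -1.03 to 2.0 log2, leaves even a large change unresolved. Cyp2b10, a target of the xenobiotic receptor CAR, measured 10.33 log2 in air mouse 1, 10.85 to 11.28 log2 in the other air mice and 11.12 to 11.35 log2 at 20 ppm. Its rise of 0.34 ± 0.120 (adjusted p = 0.0146) was 0.18 and no longer called without air mouse 1 (adjusted p = 0.104). Cyp1b1, a dioxin receptor target, rose by 1.04 ± 0.286, with 1 of its 3 probe sets higher and 1 lower. Ephx1, the microsomal epoxide hydrolase that opens styrene oxide, fell by 0.36 ± 0.0960 (adjusted p = 0.00167), from 10.48 to 10.69 log2 in air to 10.05 to 10.50 log2. With the array axis as a covariate no member of this list was called.

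Most enzymes that handle aldehydes and other oxidised products rose. Of 15 measured aldehyde dehydrogenases, aldehyde oxidases, flavin monooxygenases, carboxylesterases and carbonyl reductases, 9 rose, 1 fell and 5 were not called, with a median of 0.89 log2. Aldh1a7, a cytosolic aldehyde dehydrogenase, measured 8.59, 8.24, 8.87, 8.57 and 9.35 log2 in air and 10.72, 10.76, 10.77, 10.48 and 10.74 log2 at 20 ppm. The lowest exposed mouse was more than 1 log2 above the highest air mouse, and the mean was 3.91-fold higher (1.97 ± 0.164, adjusted p = 6.91e-12). Aox3, a molybdenum-containing aldehyde oxidase, rose by 1.72 ± 0.209, Aldh3a2, which oxidises fatty aldehydes, by 1.63 ± 0.183, and Fmo1, a flavin monooxygenase, by 1.02 ± 0.126. The array axis left 8 higher and 0 lower.

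The glutathione enzymes went both ways. Of 18 measured, 7 rose, 6 fell and 5 were not called, with a median of -0.05 log2, and with the array axis 8 rose and 4 fell. Gsta4, the transferase that conjugates 4-hydroxynonenal, measured 8.64, 8.31, 9.12, 9.15 and 9.34 log2 in air and 10.76, 10.13, 10.46, 10.16 and 10.20 log2 at 20 ppm. No exposed mouse overlapped an air mouse (1.43 ± 0.155, adjusted p = 1.48e-09). Gstk1, the mitochondrial and peroxisomal transferase, rose by 1.60 ± 0.119, Gstm5 by 1.23 ± 0.151 and the membrane-bound Mgst1 by 1.15 ± 0.119. Gpx4, the peroxidase that reduces lipid hydroperoxides, was picked from the list after its values were seen and fell by 0.62 ± 0.0814. The transferases Mgst3 (-0.90 log2), Gstt1 (-0.56 log2) and Gstp1 (-0.31 log2), also picked after their values were seen, were called lower.

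NRF2 targets were divided in the same manner, 8 higher, 6 lower and 4 not called of 18 measured, with a median of 0.07 log2. Nqo1, which reduces quinones and is a standard readout of NRF2, measured 4.34, 4.32, 4.87, 5.20 and 5.18 log2 in air and 6.46, 6.26, 7.13, 6.16 and 6.41 log2 at 20 ppm. All exposed mice were higher, mouse 3 most, and the measured difference was 1.71 ± 0.197 (air mean under 5 log2, adjusted p = 4.89e-09). The peroxiredoxin Prdx1 rose by 1.25 ± 0.104 and thioredoxin, Txn1, by 1.05 ± 0.0681. The air and exposed ranges of Txn1 were narrow, 10.52 to 10.73 log2 and 11.61 to 11.74 log2. Osgin1, an oxidative stress-induced growth inhibitor, went the other way (-1.12 ± 0.111, adjusted p = 2.34e-10). Adjusted for the array axis, 7 members rose and 2 fell. The letters TGACNNNGC, the core of the antioxidant response element that NRF2 binds, occurred on either strand in the promoter window (250 bases before to 50 after the start, RefSeq, GRCm38.p6) of 6 of 15 members that had one (40%), against 16.1% of all promoters, and 4 of those 6 rose and 1 fell.

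Club cell genes other than the P450s did not move together. Of 13 measured, 2 rose, 2 fell and 9 were not called, with a median of 0.09 log2, and with the array axis 1 rose and 0 fell. Scgb1a1, the secretoglobin that defines the cell, differed by 0.09 ± 0.0518 (adjusted p = 0.133) at a level close to the top of the scale. Cldn10, a tight junction protein, measured 7.17, 6.85, 7.21, 7.46 and 7.45 log2 in air and 9.09, 8.52, 9.23, 8.45 and 8.40 log2 at 20 ppm, a rise of 1.51 ± 0.152 in all 5 mice. Cckar rose by 0.72 ± 0.182, and Lypd2 (-1.24 ± 0.427) and Upk3a (-0.77 ± 0.189), a marker of a subset of club cells, fell. The call of Lypd2 was lost without air mouse 1 (adjusted p = 0.0539).

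Genes of motile cilia, which beat on airway ciliated cells, were mostly higher. All 20 measured members were called, 17 higher and 3 lower, and the list had the highest median of the 35, 1.12 log2. Drc3 and Bbs5, described above, led it. Mlf1 measured 4.81, 4.13, 4.80, 4.24 and 4.59 log2 in air and 6.86, 6.95, 6.32, 6.68 and 6.36 log2 at 20 ppm (2.12 ± 0.221, adjusted p = 6.48e-10), and Spag6l, a protein of the central pair of ciliary microtubules, rose by 1.96 ± 0.225. The 3 that fell were Rsph9 (-0.96 ± 0.270), a radial spoke protein, Foxj1 (-0.75 ± 0.312, adjusted p = 0.0363), the transcription factor that switches the motile cilium programme on, and Tppp3 (-0.64 ± 0.105), which were named after their values were seen. Foxj1 was 9.05, 7.93, 8.19, 8.21 and 7.84 log2 in air and 8.51, 7.93, 7.60, 6.72 and 6.71 log2 at 20 ppm, so the groups overlapped and 20 ppm mice 4 and 5 were the lowest. Its call was lost without any one of air mice 1 and 4 and 20 ppm mice 4 and 5, at adjusted p up to 0.139. In the covariate fit 12 members rose and 1 fell. In whole lung a change in the number of cells of a type cannot be told apart from a change in RNA per cell, here or in the lists that follow.

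Of 10 alveolar type 2 genes, 2 rose, 2 fell and 6 were not called, with a median of -0.07 log2. Sftpa1 rose by 0.27 ± 0.0674, from 12.64 to 12.93 log2 in air to 12.95 to 13.19 log2 at 20 ppm. Lpcat1, which makes surfactant phospholipid, fell by 0.83 ± 0.0875 in the probe set used and in 3 of 5 probe sets. Lyz1 (0.31 ± 0.112) and the aspartic protease Napsa (-0.56 ± 0.188) were the other called members, and the call of Lyz1 was lost without air mouse 2 (adjusted p = 0.0711) or 20 ppm mouse 2 (adjusted p = 0.0645). Among 9 genes of alveolar type 1 cells, the flat cells of gas exchange, 5 rose, 2 fell and 2 were not called, with a median of 0.59 log2. Cav1, the coat protein of caveolae, measured 10.56, 10.55, 10.92, 10.83 and 11.30 log2 in air and 12.14, 12.15, 12.04, 12.21 and 12.25 log2 at 20 ppm (1.33 ± 0.104, adjusted p = 1.90e-12). Clic5 rose by 1.51 ± 0.140, Pdpn by 0.87 ± 0.140 and Hopx by 0.59 ± 0.0917. The 2 type 1 genes that fell, Aqp5 (-0.64 log2) and Gprc5a (-0.49 log2), were named after their values were seen. So were the 2 that were not called, Ager (-0.07 log2) and Emp2 (0.18 log2). With the array axis 0 type 2 genes rose and 1 fell, and 4 type 1 genes rose and 1 fell.

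Alveolar macrophage genes were one-sided. Of 12 measured, 8 rose and none fell, with 4 not called and a median of 1.12 log2, and with the array axis 5 rose. Pparg, the transcription factor on which alveolar macrophages depend, measured 4.30, 4.47, 5.01, 4.90 and 4.56 log2 in air and 6.50, 6.10, 6.09, 6.53 and 6.59 log2 at 20 ppm. All 5 exposed mice were at least 1 log2 above the highest air mouse (1.72 ± 0.188, adjusted p = 1.74e-09). Plet1 rose by 1.40 ± 0.112, the tetraspanin Cd9 by 1.25 ± 0.103 and Chil3, a chitinase-like protein of alternatively activated macrophages, by 1.16 ± 0.156. Chil3 and Chil4 were the 2 called members of 4 measured chitinase genes, and both were still called with the array axis. Neutrophil genes gave no rise: 0 of 9 were called higher, 2 were called lower and 7 were not called, with a median of -0.30 log2. These were the protease Mmp9 (-0.91 ± 0.258) and the cathelicidin Camp (-0.66 ± 0.285, adjusted p = 0.0448), and the call of Camp was lost when any of air mice 1 and 4 or 20 ppm mice 1, 3, 4 and 5 was left out, at adjusted p up to 0.137. Neither was called with the array axis.

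Of 21 chemokines and cytokines, 3 rose, 4 fell and 14 were not called, so 33.3% were called, with a median of -0.10 log2. Cxcl15, made by lung epithelium, rose by 0.74 ± 0.0823 from 11.91 to 12.25 log2 in air to 12.64 to 12.89 log2 at 20 ppm, with no overlap. Cxcl13, which attracts B cells, measured 5.06, 7.11, 5.50, 6.70 and 6.93 log2 at 20 ppm against 4.39 to 5.52 log2 in air, so exposed mice 1 and 3 lay within the air range (1.44 ± 0.441, adjusted p = 0.00523). Il1b rose by 1.19 ± 0.393, and Cx3cl1 fell by 1.20 ± 0.144 on the log2 scale. The array axis left 3 higher and 1 lower, and without 20 ppm mice 1, 2 and 3 there were 3 higher and 2 lower.

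Interferon-stimulated genes were mostly higher. Interferons switch on antiviral genes, many of them through a short promoter sequence, the interferon-stimulated response element. Of 15 measured antiviral genes 9 rose, 2 fell and 4 were not called, with a median of 0.74 log2, and of 11 interferon-inducible GTPases 7 rose, 1 fell and 3 were not called, with a median of 1.12 log2. The core of that element, GAAA, any 2 bases and GAAA again, occurred on either strand in the promoter windows described for NRF2 of 13 of the 18 members that had one (72.2%), against 487 of 13514 genes (3.6%). Of these 13 members 9 rose and 0 fell, and Gbp7, Igtp, Ifih1 and Stat2 were not called. Members without a match or without a window also held rises, among them Oasl2 and Rtp4, and they held the falls. The windows of 3 members described next are shown because they carry the element near the start, in capitals, with overlapping matches joined. They lie at chr19:34640639-34640938 on the plus strand (Ifit1), chr11:48871371-48871670 on the minus strand (Irgm1) and chr11:48992197-48992496 on the minus strand (Tgtp1), each read 5′ to 3′ along its gene.
Ifit1: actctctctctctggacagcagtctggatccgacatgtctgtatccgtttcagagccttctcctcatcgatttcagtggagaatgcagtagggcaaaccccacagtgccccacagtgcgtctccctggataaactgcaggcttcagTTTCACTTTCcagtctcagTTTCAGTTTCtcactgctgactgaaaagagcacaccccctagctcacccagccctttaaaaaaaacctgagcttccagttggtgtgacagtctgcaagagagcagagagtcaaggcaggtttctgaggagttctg
Irgm1: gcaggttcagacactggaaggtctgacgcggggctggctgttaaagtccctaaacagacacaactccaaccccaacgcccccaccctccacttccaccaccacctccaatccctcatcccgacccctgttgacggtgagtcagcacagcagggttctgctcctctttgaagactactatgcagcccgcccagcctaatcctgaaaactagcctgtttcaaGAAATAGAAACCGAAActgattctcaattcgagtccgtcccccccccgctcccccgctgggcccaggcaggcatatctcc
Tgtp1: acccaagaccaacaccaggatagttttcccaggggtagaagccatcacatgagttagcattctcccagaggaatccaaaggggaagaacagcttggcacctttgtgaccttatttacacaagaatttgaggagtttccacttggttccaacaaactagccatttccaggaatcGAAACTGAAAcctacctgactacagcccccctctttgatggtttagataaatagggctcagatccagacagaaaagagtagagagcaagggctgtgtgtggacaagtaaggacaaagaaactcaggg
The first match began 104 bases before the start in Ifit1, 30 in Irgm1 and 77 in Tgtp1, with 2 matches in Ifit1, 2 in Irgm1 and 1 in Tgtp1. A match of letters is a description and not a measured site.

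Ifit1, which binds viral RNA that lacks a proper cap, measured 3.99, 4.52, 4.53, 4.43 and 5.54 log2 in air and 6.65, 7.31, 5.84, 6.30 and 6.43 log2 at 20 ppm. All exposed mice were above the air mice, mouse 3 by the least, and the measured difference was 1.90 ± 0.257 (air mean under 5 log2, adjusted p = 1.02e-07). Irgm1, a GTPase of the autophagic response to bacteria, measured 4.97, 4.84, 4.66, 4.83 and 5.39 log2 in air and 6.45, 6.70, 6.69, 6.76 and 6.85 log2 at 20 ppm (1.75 ± 0.225, adjusted p = 4.12e-08). Tgtp1, a GTPase first found in T cells, had the largest rise of these 26 genes at 4.47-fold, from 6.19 to 7.33 log2 in air to 8.65 to 9.10 log2 at 20 ppm (2.16 ± 0.373). Oasl2 rose by 1.75 ± 0.225, Gbp2 by 1.46 ± 0.247, the RNA sensor Ddx58 by 1.24 ± 0.128 and Rtp4 by 1.13 ± 0.194, whereas Gbp4 fell by 0.62 ± 0.118 on the log2 scale. The antiviral genes that fell were Irf7 (-0.94 log2) and Oasl1 (-0.67 log2). Mx1 (0.13 log2) and Mx2 (-0.17 log2) were among those not called. Irf7, Oasl1, Mx1 and Mx2 were named after their values were seen. These counts shrank with the array axis, to 4 higher and 2 lower antiviral genes and 2 higher and 1 lower GTPases, and the call of Gbp2 (adjusted p = 0.0596) was lost. Over all genes the count shrank too, from 10867 to 5445 of 17097.

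Genes of MHC class II, which present extracellular antigen to helper T cells, had the lowest median of the 35 lists, -0.81 log2. Of 10 measured, 7 fell, none rose and 3 were not called. H2-DMa, a chain of the chaperone that loads peptide, measured 9.85, 9.51, 9.74, 9.69 and 9.48 log2 in air and 8.51, 8.11, 8.56, 8.61 and 8.36 log2 at 20 ppm, all lower (-1.22 ± 0.155, adjusted p = 3.02e-08). Its partners H2-DMb1 (-1.04 ± 0.164) and H2-DMb2 (-1.07 ± 0.153) and the inhibitor H2-Oa (-1.57 ± 0.323) fell too. Ciita (-1.05 log2), H2-Ab1 (-0.58 log2) and Cd74 (-0.39 log2) were also called lower. H2-Aa (0.14 log2), H2-Eb1 (-0.04 log2) and H2-Ob (0.58 log2) were the 3 not called. The members of these last 2 sentences were named after their values were seen. H2-Ea, outside the list and named after its values were seen, was high in single mice of either group, 9.14 log2 in air mouse 3 and 10.28 log2 in 20 ppm mouse 3 against 5.93 to 6.75 log2 in the other 8. Adjusted for the array axis, 3 members fell, and H2-Oa (adjusted p = 0.109) was no longer called.

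Lymphocyte genes did not give 1 direction. Of 7 B cell genes 2 fell and 5 were not called, with a median of -0.35 log2: Cd79a (-1.16 ± 0.352), a chain of the B cell receptor complex, and the kinase Blk (-0.86 ± 0.312). Of 11 genes of T and natural killer cells 4 rose, 3 fell and 4 were not called. The chains of the T cell receptor complex divided, with Cd3g (1.08 ± 0.283) and Cd3d (0.91 ± 0.284) higher and Cd3e (-0.78 ± 0.185) lower. Cd3e measured 6.67 to 6.99 log2 in air and 5.90 to 6.25 log2 at 20 ppm, while Cd3d measured 5.43 to 6.29 log2 in air and 6.40 to 7.45 log2 at 20 ppm, and in neither did the groups overlap. Ncr1, a receptor of natural killer cells, rose by 0.99 ± 0.325. In the covariate fit no B cell gene was called, and 3 genes of T and natural killer cells rose and 0 fell, and with the interquartile range as the covariate none of the latter was called.

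Most platelet genes fell. Of 10 measured, 6 fell, 2 rose and 2 were not called, with a median of -0.62 log2, and with the array axis 5 fell and 1 rose. Besides Gp1bb and Itga2b, the falls included Gp9, which measured 7.99, 8.06, 8.61, 8.14 and 8.19 log2 in air and 6.74, 7.08, 6.26, 6.45 and 6.82 log2 at 20 ppm (-1.53 ± 0.208, adjusted p = 1.22e-07), and Gp5 (-1.26 ± 0.179). Gp1bb, Gp9 and Gp5 are chains of a single receptor complex. The 2 rises, named after their values were seen, were Clec1b (1.39 ± 0.272), an activating receptor, and the chemokine gene Ppbp (0.95 ± 0.363, adjusted p = 0.0238). Ppbp turned to -0.047 log2 with the array axis, and its call was lost without any one of air mice 1 and 2 and 20 ppm mice 2, 4 and 5 (adjusted p up to 0.112). Of 7 red blood cell genes 3 fell, 1 rose and 3 were not called. Slc4a1, the anion exchanger of the red cell membrane, had a 2.83-fold higher signal in air. Alas2, the first enzyme of heme synthesis in red cells, fell by 0.88 ± 0.189 and Ank1 by 0.67 ± 0.179 on the log2 scale, while Bpgm rose by 0.98 ± 0.183. None of the 3 falls was called with the array axis (adjusted p = 0.258, 0.148 and 0.405).

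Endothelial genes were divided, 8 lower and 5 higher of 14 measured, with a median of -0.59 log2 and, with the array axis, 6 lower and 2 higher. Tie1 and Tek encode a receptor pair on the same cells, and they moved apart. Tie1 measured 10.05, 10.13, 9.85, 9.51 and 9.67 log2 in air and 8.69, 8.64, 8.91, 8.87 and 8.80 log2 at 20 ppm (-1.06 ± 0.111, adjusted p = 7.54e-10). Tek measured 8.50, 8.84, 8.72, 8.70 and 9.19 log2 in air and 9.98, 10.46, 9.84, 10.50 and 10.74 log2 at 20 ppm (1.51 ± 0.161, adjusted p = 9.78e-10). Neither pair of groups overlapped. Egfl7, secreted by endothelium, fell by 1.13 ± 0.105 in all 3 of its probe sets, and Eng, a co-receptor for TGF-beta, by 0.89 ± 0.106 on the log2 scale.

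Matrix genes were split 7 higher, 8 lower and 3 not called of 18 measured, with a median of -0.03 log2. Proteins of elastic fibres were on both sides. Eln, elastin itself, measured 10.61, 10.11, 9.61, 9.91 and 9.99 log2 in air and 9.03, 8.98, 9.40, 8.84 and 8.86 log2 at 20 ppm (-1.02 ± 0.211, adjusted p = 8.65e-05), and its call was lost with the array axis (adjusted p = 0.0971). Mfap5 (1.13 ± 0.198), Lox (0.84 ± 0.274) and Fbln5 (0.64 ± 0.125), which also belong to or crosslink these fibres, rose, but Lox turned to -0.22 log2 with the array axis. These 4 were picked after their values were seen. Emilin1, which sits at the elastin surface, fell by 1.41 ± 0.136, Loxl1, which crosslinks elastin, by 1.04 ± 0.131 and Col5a1 by 1.07 ± 0.152 on the log2 scale. Fn1, fibronectin, rose by 1.19 ± 0.139. Of 9 smooth muscle genes 5 fell and 2 rose. Cnn1 (-1.38 ± 0.325), Des (-1.19 ± 0.224) and Lmod1 (-1.06 ± 0.160) fell, and Myh11 rose by 1.23 ± 0.231 with 1 probe set higher and 1 lower. Air mouse 1 was the highest air mouse in Cnn1 (10.07 log2, against 8.33 to 8.50 log2) and in Des (10.26 log2, against 8.47 to 9.05 log2). With the array axis 5 matrix genes rose and 3 fell, and 2 smooth muscle genes rose and 1 fell.

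Genes of striated muscle, which lung samples can hold from the walls of pulmonary veins or from adjoining tissue, followed the same mouse. Their mean over 11 genes was 8.98 log2 in air mouse 1, 6.66 to 7.54 log2 in the other air mice and 6.24 to 7.62 log2 at 20 ppm. Of the 11, 4 fell and 7 were not called. Acta1 (-0.62 ± 0.188) and Mybpc3 (-0.79 ± 0.287) differed by -0.40 and -0.52 log2 without air mouse 1, where Mybpc3 was not called (adjusted p = 0.1002). Myl4 fell by 1.61 ± 0.696 (adjusted p = 0.0436), and its call was lost without any one of air mice 1, 3 and 4 and 20 ppm mice 2, 3, 4 and 5, at adjusted p up to 0.130. No striated muscle gene was called with the array axis.

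The circadian clock runs on the activators ARNTL and CLOCK and on their targets, the repressors PER, CRY and NR1D, and a shift of phase moves its genes in opposite directions. Of 17 clock genes 8 rose, 3 fell and 6 were not called, with a median of 0.47 log2, and with the array axis none was called. The letters CACGTG, the E-box that ARNTL and CLOCK bind, occurred in 5 of 15 promoter windows (33.3%), against 10.2% of all promoters, and of those 5 genes 1 rose and 2 fell. Rora measured 4.74, 4.70, 4.80, 4.45 and 5.34 log2 in air and 5.88, 6.89, 5.58, 6.82 and 6.35 log2 at 20 ppm (2.83-fold, adjusted p = 1.47e-06), in 1 of 5 probe sets. Per2 rose by 1.32 ± 0.260, while Per1 fell by 1.18 ± 0.317 and Cry2 by 0.51 ± 0.135 on the log2 scale. At 20 ppm Per1 was 8.62 log2 in mouse 1 and 7.39 to 7.59 log2 in the other 4. Dbp, the strongest output gene of the clock, spanned 5.23 to 8.51 log2 in air and 5.00 to 8.69 log2 at 20 ppm and was not called (-0.17 ± 0.851, adjusted p = 0.873). Arntl was near the threshold (0.91 ± 0.400, adjusted p = 0.0480), and its call was lost without any single one of air mice 1, 3 and 4 and 20 ppm mice 1, 2 and 3, at adjusted p up to 0.145.

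Immediate early genes, which cells switch on within minutes of a stimulus, mostly fell or were not called: 10 of 21 fell, 1 rose and 10 were not called, with a median of -0.38 log2. Junb, a subunit of the AP-1 transcription factor, measured 9.18, 8.40, 7.95, 8.45 and 8.55 log2 in air and 6.66, 6.72, 6.89, 6.65 and 6.80 log2 at 20 ppm, where the 5 mice were close together (-1.76 ± 0.180, adjusted p = 4.35e-10). Ier2 fell by 1.24 ± 0.130, Jun by 1.00 ± 0.105 and Jund by 0.91 ± 0.115 on the log2 scale. Adjusted for the array axis, 5 fell and 2 rose. Glucocorticoid-responsive genes went 3 higher, 2 lower and 5 not called of 10, none of them called with the array axis. Klf9 rose by 0.93 ± 0.221 but turned to -0.21 with the array axis. Sgk1 rose by 0.40 ± 0.131 (0.24 and adjusted p = 0.0587 without air mouse 1), and Cebpd fell by 0.96 ± 0.234 and Angptl4, a circulating inhibitor of lipoprotein lipase, by 0.71 ± 0.221 on the log2 scale.

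Targets of p53, the factor activated by DNA damage, were divided into 8 higher, 4 lower and 4 not called of 16, with a median of 0.43 log2. Mdm2, the ligase that degrades p53, measured 5.72, 5.67, 5.83, 5.75 and 6.24 log2 in air and 7.38, 7.65, 7.24, 7.60 and 7.68 log2 at 20 ppm (1.67 ± 0.119, adjusted p = 2.73e-13). Phlda3, an inhibitor of AKT, measured 9.83, 9.70, 9.47, 9.32 and 9.38 log2 in air and 7.92, 7.91, 8.07, 7.70 and 7.95 log2 at 20 ppm (-1.63 ± 0.127, adjusted p = 1.76e-12). These opposite shifts of over 1.5 log2 were both without overlap. Sesn1 rose by 1.16 ± 0.129, and Bbc3, which triggers apoptosis, fell by 1.30 ± 0.141 on the log2 scale. Cdkn1a, the cell cycle inhibitor p21, was 10.14 log2 in 20 ppm mouse 1 and 8.27 to 9.08 log2 in the other 4, against 9.51 to 10.22 log2 in air (-0.87 ± 0.309, adjusted p = 0.0151), and was not called without 20 ppm mouse 4 (adjusted p = 0.0635). In the covariate fit 4 targets rose and 3 fell.

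Of 28 DNA repair genes 13 rose, 9 fell and 6 were not called, with a median of 0.18 log2 and, with the array axis, 5 higher and 4 lower. Pms2, a partner in mismatch repair, rose by 1.41 ± 0.158 in 1 of 3 probe sets and Xrcc6, the Ku70 subunit that binds broken ends, by 1.39 ± 0.112, while Ercc1, a nuclease subunit of nucleotide excision repair, fell by 1.11 ± 0.125 in all 4 of its probe sets. Ercc1 measured 9.12 to 9.45 log2 in air and 8.01 to 8.52 log2 at 20 ppm. Of 20 mitosis genes 8 rose, 1 fell and 11 were not called, with a median of 0.23 log2. Top2a rose by 1.10 ± 0.160, from 3.54 to 3.91 log2 to 4.40 to 5.37 log2, both near the floor of the arrays. Ccna2 rose by 0.61 ± 0.146, Prc1 by 0.49 ± 0.143 and Cdc20 fell by 0.75 ± 0.163 on the log2 scale. Mki67, the usual marker of cycling cells, lay between 3.61 and 4.34 log2 on all 10 arrays and was not called (0.18 ± 0.155, adjusted p = 0.306). With the array axis 6 mitosis genes rose and 0 fell.

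Replication licensing genes were split within 1 complex. Of 12 measured, 4 rose, 5 fell and 3 were not called, with a median of -0.15 log2. Mcm4, a subunit of the replicative helicase, measured 4.36, 4.92, 5.12, 5.23 and 5.47 log2 in air and 6.94, 7.46, 6.76, 7.49 and 7.37 log2 at 20 ppm (2.18 ± 0.162, adjusted p = 6.73e-13). Mcm6 rose by 1.01 ± 0.147 and Pcna, the sliding clamp, by 0.96 ± 0.0807, whereas Cdt1, which loads the helicase, fell by 1.30 ± 0.189 on the log2 scale. The other called subunits of the helicase, Mcm2, Mcm5 and Mcm7, named after their values were seen, fell by 1.07, 0.89 and 0.35 on the log2 scale. The array axis ended the calls of Mcm5 (adjusted p = 0.180) and Mcm7 (adjusted p = 0.570), and that of Mcm7 was also lost without any one of air mice 3 and 4 and 20 ppm mice 1 and 2, at adjusted p up to 0.0871. Adjusted for the array axis, 3 members rose and 2 fell.

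In lipid metabolism, 8 of 14 cholesterol synthesis genes rose, 4 fell and 2 were not called, with a median of 0.91 log2. Msmo1, which removes methyl groups from lanosterol products, measured 6.30, 6.22, 6.21, 6.58 and 6.85 log2 in air and 8.70, 8.72, 8.73, 8.58 and 8.37 log2 at 20 ppm (2.19 ± 0.172, adjusted p = 2.15e-12), in 1 of 2 probe sets. Cyp51 rose by 1.67 ± 0.215, Sc5d by 1.48 ± 0.172 and Sqle, squalene epoxidase, by 1.33 ± 0.172. The 4 that fell, named after their values were seen, were Dhcr7 (-1.04 log2), Mvd (-0.935 log2), Srebf2 (-0.79 log2) and Fdps (-0.67 log2). In the covariate fit 6 rose and 0 fell. Of 13 genes of fatty acid oxidation 6 rose, 3 fell and 4 were not called, with a median of 0.27 log2. The medium-chain dehydrogenase Acadm measured 8.05 to 8.65 log2 in air and 9.80 to 10.12 log2 at 20 ppm (1.66 ± 0.162), while Decr1 rose 2.83-fold, Ehhadh by 1.18 ± 0.191 and Hadhb by 1.11 ± 0.171. With the array axis 5 rose and 1 fell.

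Heat shock proteins and chaperones rose in 8 of 12 members with no fall, at a median of 0.95 log2, but with the array axis 2 rose and with the interquartile range none was called. Hspa5, the chaperone of the endoplasmic reticulum, measured 8.71, 9.56, 9.58, 9.82 and 10.43 log2 in air and 10.57, 11.40, 10.98, 11.58 and 11.29 log2 at 20 ppm (1.55 ± 0.194). Hspa4l rose by 1.74 ± 0.323, Hspe1 by 0.95 ± 0.190 and Hsp90b1 by 0.94 ± 0.207. The difference of Hsp90b1 was -0.29 with the array axis, so its direction depended on that fit. Without 20 ppm mice 1, 2 and 3 there were 4 rises and 1 fall in this list.

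Ribosomal protein genes, which are made in equal amounts for 1 particle, did not move as 1 set: 8 of 16 rose, 4 fell and 4 were not called, with a median of 0.14 log2. Rpl4 measured 10.15, 10.31, 10.50, 10.60 and 11.12 log2 in air and 11.98, 12.19, 12.02, 12.25 and 12.23 log2 at 20 ppm (1.60 ± 0.121, adjusted p = 9.44e-13). Rpl7 rose by 1.52 ± 0.0984, Rps6 by 1.03 ± 0.0791 and Rps24 by 1.01 ± 0.0714, and of the 3 probe sets of Rps6 2 rose and 1 fell. The 4 that fell, named after their values were seen, were Rplp0 (-0.28 log2), Rps15 (-0.27 log2), Rpl13 (-0.26 log2) and Rplp1 (-0.19 log2). Nuclear-encoded respiratory chain subunits went 8 higher, 7 lower and 4 not called of 19, with a median of 0.11 log2. Ndufs1, the largest subunit of complex I, measured 6.06 to 6.62 log2 in air and 7.95 to 8.34 log2 at 20 ppm (1.92 ± 0.127), while Sdha rose 2.83-fold, Ndufa4 by 1.14 ± 0.101 and Ndufa1 by 0.88 ± 0.0762. Among the 7 that fell were Uqcrc1 (-1.33 log2), Ndufs7 (-1.05 log2) and Ndufb8 (-0.73 log2), named after their values were seen. Adjusted for the array axis, 6 ribosomal genes rose and 0 fell, and 11 respiratory genes rose and 3 fell.

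Across the gene lists, liver and fat included, 41 of 74 counts of rises or falls moved by over 1.5 times with the array axis and 46 with the interquartile range as the covariate. The calls over all genes also moved that far, from 10867 to 5445 and to 4816. With the interquartile range as the covariate no clock, glucocorticoid, striated muscle or smooth muscle gene was called.

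**Figure D3:**
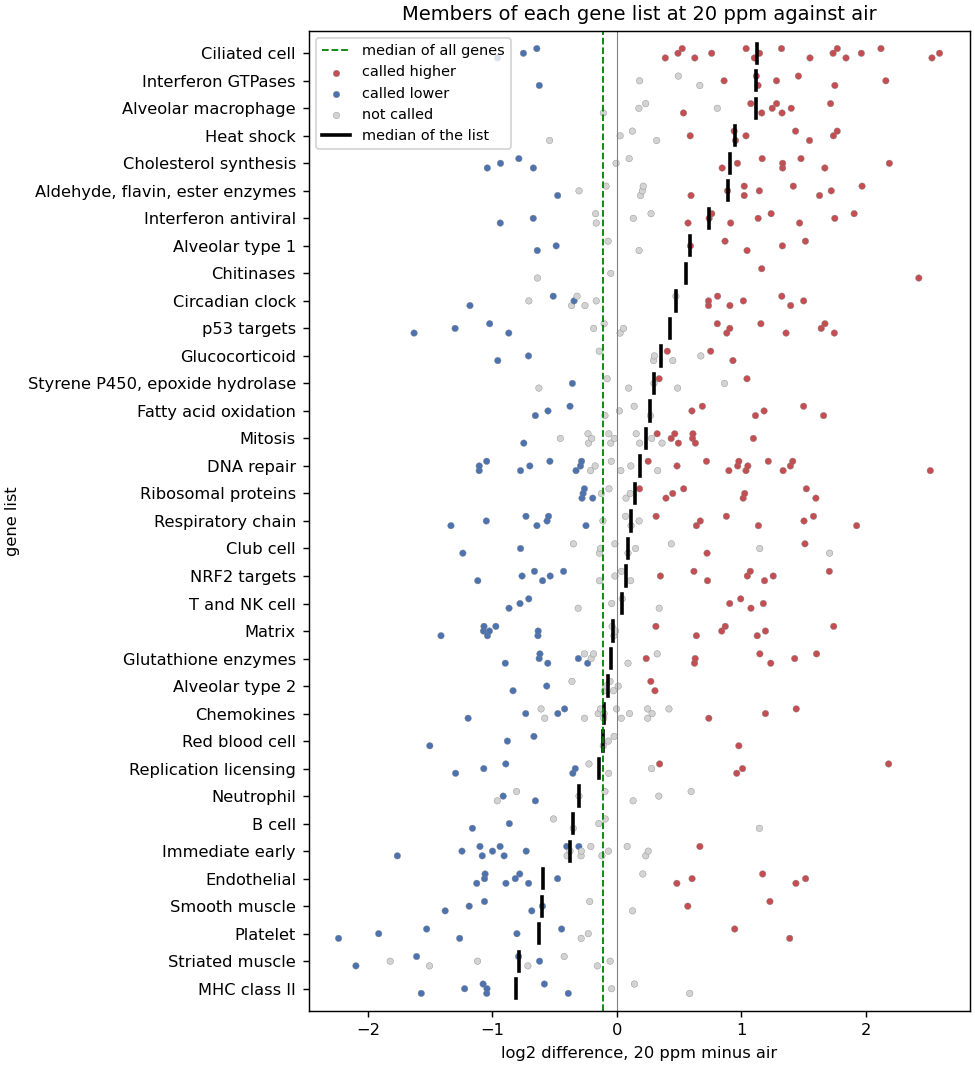
Difference of 20 ppm minus air in log2 (horizontal axis) for each measured member of 35 gene lists (rows, ordered by their median), from 5 mice a group. Red points were called higher, blue lower and grey not called, black bars are list medians and the dashed line is the median of all genes, -0.11. Cilia (1.12), interferon GTPases (1.12) and alveolar macrophages (1.12) have the highest medians and MHC class II (-0.81) the lowest, and most lists hold members on both sides.

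In the fit reported here no gene was called between 20 ppm and the neighbouring concentrations, and alternatives called at most 3. Against 10 ppm 0 of 17097 genes were called by limma (background 0%), with 1589 (9.29%) at an unadjusted p under 0.05, and for 40 against 20 ppm 0 were called, with 983 (5.75%) at an unadjusted p under 0.05. The standard error of a difference was 0.129 log2 at the median gene, which gives a 95% interval of 0.264 log2 to either side, so differences smaller than that were not resolved for such a gene. That interval is not adjusted over the 17097 genes, so larger differences could also go uncalled, as the 0.48 log2 of Rpa3 below did. Rpa3, a subunit of the protein that coats single-stranded DNA, and C130075A20Rik shared the lowest adjusted p against 10 ppm, 0.0632. Rpa3 measured 7.46, 7.37, 7.43, 7.35 and 7.40 log2 at 10 ppm and 8.01, 7.65, 7.93, 7.88 and 7.91 log2 at 20 ppm (0.48 ± 0.0885). Its difference from air was -0.14 (adjusted p = 0.162). C130075A20Rik measured 7.31, 7.48, 7.27, 7.19 and 7.30 log2 at 10 ppm and 6.75, 6.85, 6.43, 6.89 and 6.97 log2 at 20 ppm (-0.54 ± 0.101). For 40 against 20 ppm C130075A20Rik had the lowest adjusted p, 0.329, with a difference of 0.50.

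The means over the 7 groups differed in shape between genes. Bbs5 averaged 3.62 ± 0.33 log2 in air (SD, n = 5), 4.29 at 1 ppm, 6.08 at 5 ppm, 5.88 at 10 ppm, 6.15 ± 0.13 at 20 ppm, then 5.94 at 40 and 6.13 at 120 ppm. Junb averaged 8.51, 8.39, 6.48, 6.79, 6.74, 6.62 and 6.63 log2 over the same 7 groups. In both, the means from 5 to 120 ppm lay closer to each other than to air. Bbs5 was already above air at 1 ppm (0.67, adjusted p = 0.0177). Nqo1 averaged 4.78 ± 0.43 log2 in air, 4.91 at 1 ppm, 5.49 at 5 ppm, 5.97 at 10 ppm, 6.49 ± 0.38 at 20 ppm, then 6.11 at 40 and 6.27 at 120 ppm. The 20 ppm group had the highest of the 7 means. Its difference from 10 ppm was 0.51 (95% interval 0.11 to 0.91, adjusted p = 0.390) and that of 40 from 20 ppm -0.37 (95% interval -0.77 to 0.03, adjusted p = 0.891), and neither was called. Cyp2f2 stayed between 13.02 and 13.16 log2 in all 7 means. Eln was 9.02 ± 0.23 log2 at 20 ppm and 7.73 ± 0.58 log2 at 120 ppm. These comparisons with air use the same 5 control mice. With 1 ppm in place of air, 11619 genes (68%) were called, 5453 higher and 6166 lower at 20 ppm. The 1 ppm arrays lay on the air side of the array-wide measures, so this exchange cannot probe the division between 1 and 5 ppm.

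**Figure D4:**
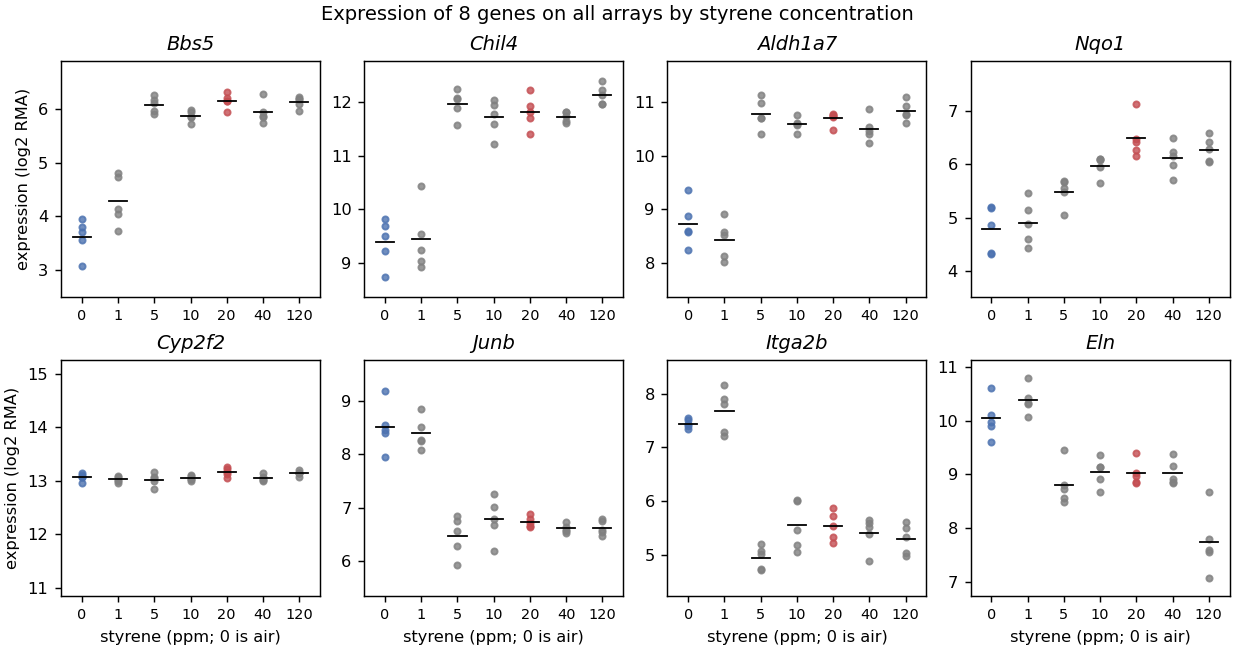
Expression in log2 RMA units (vertical axis, the same span in every panel) of 8 genes at 0 (air), 1, 5, 10, 20, 40 and 120 ppm styrene (horizontal axis, evenly spaced categories), with 5 mice a group as points and means as bars, air in blue and 20 ppm in red. In Bbs5, Chil4, Aldh1a7, Junb and Itga2b the level differs between 1 and 5 ppm, the means of Nqo1 climb over several concentrations to 6.49 at 20 ppm, Cyp2f2 lies between 13.02 and 13.16, and Eln has its lowest mean, 7.73, at 120 ppm.

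The 5 mice at 20 ppm were not alike in every gene. Over all genes the median standard deviation was 0.18 log2 at 20 ppm and 0.25 log2 in air, but a set of genes split mice 1, 2 and 3 from mice 4 and 5 by several log2 units. Alb, serum albumin, a product of liver and not of lung, measured 9.43, 8.0 and 8.83 log2 in mice 1, 2 and 3 and 4.13 and 4.41 log2 in mice 4 and 5. Serpina1c, with the largest standard deviation at 20 ppm (2.97 log2), and Alb, Apoa1 and Apoa2 were among the 15 most variable genes, which led to a list of 22 liver genes put together after the values were seen. All of its 21 measured members were higher in each of mice 1, 2 and 3 than in mice 4 and 5. That count partly restates how the list came about, and the share of all genes with such a split is not given here. The mean of the list was 6.58, 5.41 and 6.29 log2 in mice 1, 2 and 3 against 3.44 and 3.44 log2 in mice 4 and 5. In air the same mean was 5.36, 5.24, 3.65, 4.36 and 4.04 log2, and it reached 7.09 and 6.91 log2 in mice 1 and 3 at 1 ppm and 8.10 log2 in mouse 1 at 40 ppm, so high values also occurred at other concentrations. Against air 1 of the 21 was called, Fgg, a chain of fibrinogen (1.02 ± 0.451, adjusted p = 0.0482), a call that was lost without any one of air mice 2 to 5 and 20 ppm mice 1 to 3, at adjusted p up to 0.162. In the covariate fit 7 of the 21 were called higher.

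The split ran through inducible genes as well. Hspa1b, the stress-induced heat shock protein, measured 11.73, 12.14 and 11.74 log2 in mice 1, 2 and 3 and 8.85 and 8.34 log2 in mice 4 and 5, and Nfil3, a repressor under clock control, 7.30, 6.70 and 7.40 log2 and 4.97 and 5.24 log2. Dbp went the opposite way, 6.35, 5.10 and 5.00 log2 and then 8.69 and 8.55 log2, as did Nr1d2, at 7.90, 8.66 and 6.97 log2 and then 9.92 and 9.72 log2. Over all genes, 10 were at least 2 log2 higher in each of mice 1, 2 and 3 than in mice 4 and 5, and 2 were at least 2 log2 lower. Because these values set the mice apart, no test was made between them. Without mice 1, 2 and 3, 10039 genes were called against air, 4711 higher and 5328 lower, and without any single mouse of either group the count lay between 10029 and 11029. Gdpd3 took only high or low values in these outbred mice, 10.30 and 10.17 log2 in 20 ppm mice 3 and 5 and 10.29 log2 in air mouse 2, against 5.16 to 5.56 log2 in the other 7. The genes of this paragraph were picked after their values were seen, apart from Dbp.

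**Figure D5:**
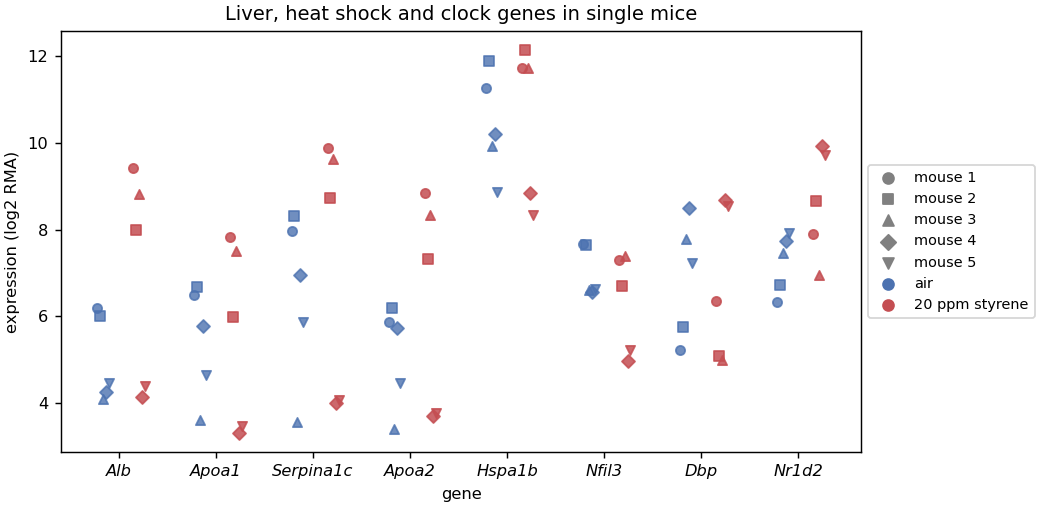
Expression in log2 RMA units (vertical axis) of 4 liver genes, Hspa1b and 3 clock-related genes (horizontal axis) in single air mice (blue) and 20 ppm mice (red), with 1 symbol per mouse number, which does not pair mice across groups. At 20 ppm mice 1, 2 and 3 are high and mice 4 and 5 low in the first 6 genes, for example Alb at 8.0 to 9.43 against 4.13 and 4.41, and the order is turned in Dbp and Nr1d2.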

How the data were processed

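The deposited series table holds log2 values, which the authors made by RMA with Partek, per the submitters' processing notes, from Affymetrix 3' arrays of whole mouse lung. Tool versions and settings are not given in the sources used here. Of 45037 probe sets, 28898 had 1 gene symbol, 551 had several and 15588 had none. The last 2 kinds were left out, and each of 17097 genes was represented by its probe set with the highest mean over all 35 arrays. Differences were tested in R 4.3.3 with limma 3.58.1 (lmFit, eBayes), with a mean for each of 7 groups and 28 residual degrees of freedom, and p-values were adjusted by Benjamini-Hochberg over all genes. The procedure was tested on simulated data. Array-wide measures were compared by two-sided exact permutation tests. The number of arrays limits the precision.

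Genes named were the 10 largest rises and 10 largest falls among called genes whose groups did not overlap, up to 4 called members of each of 35 lists by smallest adjusted p, and a few metabolic, proliferation and clock genes. Others are said to have been picked after their values were seen. The comparison, the members and the lists were chosen with earlier results of these data known, so lists are described without a test. Of 544 list entries 478 were measured. Mouse numbers in the titles did not pair the groups (correlations of deviations from -0.15 to 0.28 over 5 numbers). Promoter windows came from RefSeq, GRCm38.p6, for 13514 genes. Alternatives covered the probe set rule, normalization, dim genes, covariates, the replicate block, the threshold, the control group and single mice.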

Additional observations from a re-analysis of the deposited data

Results flagged for a closer look

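Single mice stood far from the other 4 of their group in 25 of 352 groups examined (7.10%), by Dixon's criterion with a critical ratio of 0.71, which chance alone meets in about 1 of 20 groups. In air, mouse 1 was high in Cnn1 (10.07 log2) and Tppp3 (12.60) and low in Fbln5 (9.40), Hopx (12.23) and Sesn1 (6.85). Air mouse 2 was high in Egfl7 (11.42) and Gdpd3 (10.29) and low in Mmp9 (6.39) and Top2a (3.54). Air mouse 3 was high in H2-Ea (9.14) and Rpa3 (8.23). Air mouse 5 was high in Hsdl2 (4.99), Klf9 (10.10) and Mdm2 (6.24) and low in Ercc1 (9.12). These air mice were also spread over the array axis, with mouse 5 nearest to the 20 ppm arrays.

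At 20 ppm, mouse 1 was high in Myl4 (9.69 log2) and Per1 (8.62) and low in Ly6d (5.08). Mouse 2 was low in Cyp2b10 (11.12), Decr1 (8.95), H2-DMb2 (8.06) and H2-Oa (4.80). Mouse 3 was high in H2-Ea (10.28) and low in Klf9 (9.66), and mouse 4 was low in Aldh1a7 (10.48). In Aldh1a7 the low exposed mouse was still above every air mouse, and in H2-Oa every exposed mouse was below every air mouse.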

How the results depend on the processing

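Against air, 10867 genes were called in the reported setting. The count was 23784 (11262 higher and 12522 lower) with every probe set tested on its own, which tests more features, 7043 (3100 lower) with a 1.5-fold minimum, 5445 (2995 higher and 2450 lower) with the array axis and 4816 (2307 higher and 2509 lower) with the interquartile range as a covariate. Of those 5445 and 4816 genes, 4943 and 4621 were among the reported calls. Without genes of a mean under 5 log2, 3617 were lower. Quantile normalization, median centring (4715 higher and 6818 lower), the trended robust prior, the fit of only the 2 groups, the stricter p and 1 ppm in place of air kept the count within 1.5 times. Leaving out 1 mouse gave 10029 to 11029 genes, 4793 to 5013 higher and 5210 to 6016 lower.

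For 20 against 10 ppm, 2 genes were called (1 higher and 1 lower) with probe sets averaged per gene, with quantile normalization, without dim genes and with the replicate block, 3 (2 higher and 1 lower) with the interquartile range, and 0 to 1 without 1 mouse. For 40 against 20 ppm the count was 0 throughout. The replicate block gave 10884 genes against air and moved 2 of 74 list counts by over 1.5 times, the falls among neutrophil genes (4) and heat shock genes (1). It also brought Nfil3 past the threshold (adjusted p = 0.0172) and ended no call among the 174 named genes followed through the alternatives.

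Of 174 named genes followed through the alternatives, 115 kept direction and call with the array axis and 113 with the interquartile range. Direction turned with the array axis in Acta1 (0.0023), H2-Ea (0.57), Hsp90b1 (-0.29), Klf9 (-0.21), Lox (-0.22), Mki67 (-0.42), Mybpc3 (0.27), Nfil3 (0.37), Nr1d2 (-0.37), Ppbp (-0.047) and Scgb1a1 (-0.0079). With the interquartile range it turned in Acta1 (0.10), Foxj1 (0.17), H2-Ea (1.23), Hsp90b1 (-0.15), Lox (-0.16), Mki67 (-0.0094), Nfil3 (0.45) and Nr1d2 (-0.32). It turned with 1 ppm as control in Mki67 (-0.26) and Rpa3 (0.093), and without 20 ppm mice 1, 2 and 3, an alternative chosen after seeing the data, in Alb (-0.74), Dbp (1.72) and Hspa1b (-1.84). Without 1 mouse, the sign changed in genes that were never called: Dbp ranged from -0.65 to 0.27, H2-Ea from -0.99 to 0.39 and Hspa1b from -0.27 to 0.68. The cause was not tested in any of these. The first principal component and the interquartile range kept their direction without any 1 mouse (126.3 to 141.7 and 0.32 to 0.37 log2).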
